A study of Mus musculus with 9 samples.

Results

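The subject is a set of 10 keratin genes, the simple epithelial and ductal keratins with some of their stratified-epithelium relatives, Krt7, Krt8, Krt18, Krt19, Krt20, Krt23, Krt80, Krt5, Krt14 and Krt17, among the 54838 genes of the count table. They were taken by symbol, in a list drawn up with earlier results of these data known, and their levels are given in all 9 libraries, with the replicate spread of the control clone shown. The libraries come from PDA530 Met, a line of mouse pancreatic ductal adenocarcinoma that was started from a metastasis, in the liver, in a male of the KPC model of this cancer, on a mixed 129/SvJae/C57Bl/6 background. The knockout group is 1 single-cell clone (E4) edited by CRISPR/Cas9 in Zdhhc20, the gene of a palmitoyltransferase, which adds the fatty acid palmitate to proteins. The control group is 1 single-cell clone (C5) that went through nucleofection with the same guide RNAs, remained unedited and still expresses Zdhhc20. The parental group is the uncloned line. All cells were untreated and harvested under normal growth. Each group has 3 libraries, which the design text calls biological replicates. As the knockout and the control are 1 clone each, the p-values measure the spread between libraries of a clone, and an effect of the edit and a difference between clones cannot be told apart.

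Keratins are the intermediate filament proteins of epithelial cells. A filament is built from heterodimers of a type I (acidic) and a type II (basic) keratin, so that every epithelium expresses at least a pair of them. Keratin 8 and keratin 18 form the primary pair of simple, single-layered epithelia, keratin 7 and keratin 19 are added in ducts, including those of the pancreas, and keratin 5 and keratin 14 are the pair of the basal layer of stratified epithelia. Keratin filaments are anchored at desmosomes through linker proteins such as desmoplakin.

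The 6 type I members are Krt18, Krt19, Krt20, Krt23, Krt14 and Krt17, and the 4 type II members are Krt7, Krt8, Krt80 and Krt5. In the GENCODE M21 annotation of build GRCm38, 5 members lie on chromosome 11 within 832.6 kb and 5 on chromosome 15 within 684.6 kb. Krt18 (ENSMUSG00000023043, chr15:102028180-102032027, plus strand) is the type I gene that lies among the type II genes, 23.7 kb from its partner Krt8 (ENSMUSG00000049382, chr15:101996698-102004482, minus strand). The other chromosome 15 members are Krt80 (ENSMUSG00000037185, chr15:101347444-101370162, minus strand), Krt7 (ENSMUSG00000023039, chr15:101411043-101430313, plus strand) and Krt5 (ENSMUSG00000061527, chr15:101707070-101712898, minus strand). On chromosome 11, all on the minus strand, lie Krt20 (ENSMUSG00000035775, chr11:99428403-99438150), Krt23 (ENSMUSG00000006777, chr11:99477974-99493137), Krt19 (ENSMUSG00000020911, chr11:100140810-100148665), Krt14 (ENSMUSG00000045545, chr11:100203162-100207548) and Krt17 (ENSMUSG00000035557, chr11:100256217-100261029).

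Promoter sequences were at hand for 7 of the 10 members, and 4 are printed because these genes carry the contrasts described below: the partners Krt8 and Krt18, which fell by different amounts, Krt23, which rose, and Krt7, which differed in the control clone. They are from RefSeq on build GRCm38.p6, run 5′ to 3′ on the strand of the gene, and hold the 250 bases before and the 50 bases after the annotated start. Capitals mark matches to the motifs searched on both strands, of which these windows held the TATA box motif TATAAA, the motif GGGCGG (GC box of SP and KLF factors) and the motif CACCTG (E-box of SNAI and ZEB factors); GGGCGG on the other strand reads CCGCCC.
Krt8 (chr15:102004293-102004592, minus strand): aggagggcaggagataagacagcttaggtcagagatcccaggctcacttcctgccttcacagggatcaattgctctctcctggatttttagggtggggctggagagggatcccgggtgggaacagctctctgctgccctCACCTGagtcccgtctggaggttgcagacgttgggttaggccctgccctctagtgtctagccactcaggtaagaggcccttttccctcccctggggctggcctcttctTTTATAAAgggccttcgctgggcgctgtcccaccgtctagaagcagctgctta
Krt18 (chr15:102027966-102028265, plus strand): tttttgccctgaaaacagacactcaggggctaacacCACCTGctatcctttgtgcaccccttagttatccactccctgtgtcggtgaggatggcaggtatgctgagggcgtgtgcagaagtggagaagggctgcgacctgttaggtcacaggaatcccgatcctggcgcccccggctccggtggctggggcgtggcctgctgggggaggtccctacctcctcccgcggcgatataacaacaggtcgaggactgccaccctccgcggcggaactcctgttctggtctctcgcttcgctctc
Krt7 (chr15:101412153-101412452, plus strand): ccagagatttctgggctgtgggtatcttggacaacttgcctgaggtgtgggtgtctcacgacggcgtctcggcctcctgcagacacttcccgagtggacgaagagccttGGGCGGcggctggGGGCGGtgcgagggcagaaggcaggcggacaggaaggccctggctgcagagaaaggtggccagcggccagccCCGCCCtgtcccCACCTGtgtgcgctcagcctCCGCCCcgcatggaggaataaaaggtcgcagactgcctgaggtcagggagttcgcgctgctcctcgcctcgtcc
Krt23 (chr11:99493071-99493370, minus strand): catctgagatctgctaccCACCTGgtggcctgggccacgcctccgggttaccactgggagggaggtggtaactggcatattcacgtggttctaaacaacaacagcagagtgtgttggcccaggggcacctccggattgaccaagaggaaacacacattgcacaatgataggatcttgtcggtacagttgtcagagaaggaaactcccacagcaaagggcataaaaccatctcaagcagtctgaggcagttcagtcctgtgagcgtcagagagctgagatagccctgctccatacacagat

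A CACCTG was found in all 4 printed windows and in 5 of the 7 windows searched (Krt7, Krt8, Krt18, Krt23 and Krt5), against 20.2% of the 32817 promoters in the RefSeq table. The Krt7 window held 4 matches to GGGCGG, which 35.6% of all promoters hold at least once, at positions -141, -128, -56 and -24 from the start. The Krt8 window held TATAAA on both strands, the copies overlapping each other and the annotated start, and TATAAA was also at position -29 in Krt20; 13.6% of all promoters hold it. Matches to TGANTCA (AP-1 site) and AACNNGTT (grainyhead-like site), held by 7.81% and 4.2% of all promoters, were absent from the 7 windows. The windows of Krt14 (chr11:100205981-100206280) and Krt7 lie inside the spans that GENCODE gives these genes. Their outermost GENCODE starts were therefore not searched. A match is a string of letters and not a measured binding site.

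Library depth was 16525869 to 23192701 counts. In CPM, the counts scaled to library size after TMM scaling, Zdhhc20 stood at 33.9 to 42.5 in the knockout libraries, 85.7 to 123 in the control libraries and 75.3 to 90.6 in the parental libraries, so its RNA was lower in the edited clone but present. Among ductal markers that are not keratins, Cdh1 had means of 768, 1278 and 1201 CPM in the knockout, control and parental groups, Sox9 had 10.7, 13.8 and 9.82, and Muc1 had 94.4, 329 and 126. Spp1 (704, 1074 and 1134) and Car2 (10.5, 51.7 and 27.7) were lowest in the knockout clone, as were Cdh1 and Muc1, and the part of these differences in the keratin results was not tested. Cldn18 (1.65, 2.49 and 4.57), Cftr (0.199, 0 and 1.46) and Onecut1 (0, 0 and 0.194) were low in all groups. Epcam, a general epithelial surface marker, was near 0 in all groups, with means of 0.61, 0.15 and 0.198 CPM. No acinar, endocrine, fibroblast, immune or endothelial marker of the lists reached 5 CPM in any group. In bulk RNA, fewer cells of a kind and less RNA per cell cannot be told apart.

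Of the 10 members, 8 entered the test, and 6 of these (Krt7, Krt8, Krt18, Krt19, Krt20 and Krt14) were lower and Krt23 higher in the knockout than in the control clone. Over all 13153 genes tested, 42.9% were called in this comparison at a Benjamini-Hochberg adjusted p under 0.05 in edgeR's quasi-likelihood test, 24.2% lower and 18.7% higher. Against the parental cells 5 members were lower (Krt8, Krt18, Krt19, Krt20 and Krt14) and Krt23 was higher, where 31.4% of all genes were called, 18.3% lower and 13.1% higher. These 5 were lower against both other groups, which held for 13.4% of all genes. Among them Krt20 is a low gene that passed the filter on low counts through the control and parental libraries, so the counts and medians over the tested members are descriptions only. Krt23 was higher against both groups, which held for 8.19%. Comparing the control clone with the parental cells, only Krt7 was called in this fit, with 21.4% of all genes called, 10.4% higher and 11% lower in the control clone. The median log2 fold change of the 8 tested members was -1.03 against the control clone and -0.56 against the parental cells, beside -0.02 and -0.01 over all genes. Both knockout comparisons use the same 3 knockout libraries and are not independent of each other.

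**Figure D1:**
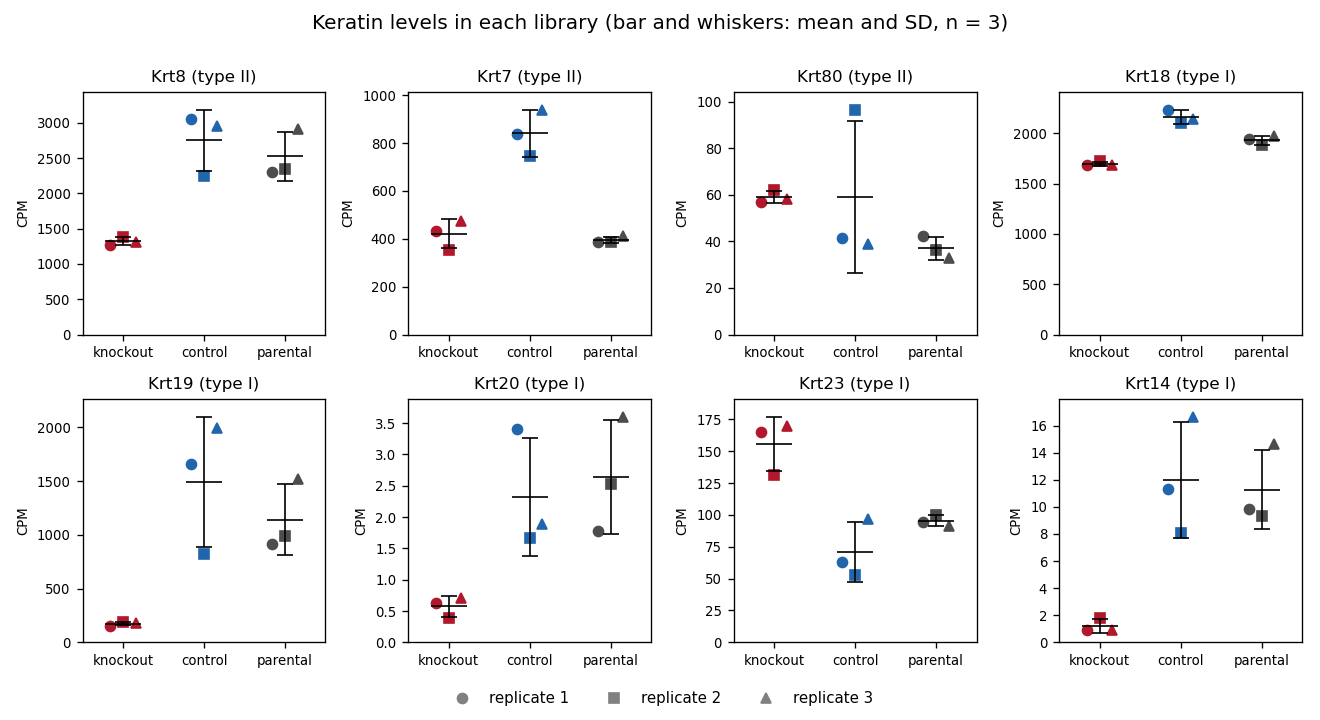
CPM of the 8 tested keratins in each of the 9 libraries, by group on the x axis, with each panel's y axis starting at 0; marker shape gives the replicate number, and the bar and whiskers are the mean and SD of 3 libraries. The knockout points of Krt8, Krt18, Krt19, Krt20 and Krt14 lie below all other points, those of Krt23 lie above them, and Krt7 is high in the control clone.

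The keratin 8 and keratin 18 pair was the most abundant of the members in every group, and both partners were lower in the knockout clone, Krt8 by more than Krt18. Krt8 had 1267, 1386 and 1313 CPM in knockout libraries 1 to 3, then 3054, 2252 and 2947 in the control libraries and 2300, 2351 and 2917 in the parental libraries. All 3 knockout libraries were below all 6 others, and control and parental libraries overlapped. The Krt8 difference was 2.08-fold against the control clone (log2 fold change -1.06, SE 0.13, adjusted p = 0.000251) and 1.91-fold against the parental cells (-0.93, SE 0.13, adjusted p = 0.000766). Falls of at least this size were found in 10.9% and 10.1% of all genes tested. Control and parental levels of Krt8 differed by 0.13 on the log2 scale (SE 0.13, adjusted p = 0.528).

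Krt18 was the steadiest member. It stood at 1682, 1723 and 1689 CPM in the knockout, 2236, 2106 and 2145 in the control and 1945, 1880 and 1969 in the parental libraries. The 3 groups did not overlap, in the order knockout, parental, control. Against the control clone Krt18 was 1.27-fold lower (log2 fold change -0.35, SE 0.06, adjusted p = 0.00157), and 29.3% of all genes fell at least as far. The difference from the parental cells was 1.14-fold (-0.19, SE 0.06, adjusted p = 0.0427) and close to the threshold. That call was lost when any knockout or parental library was left out (log2 fold changes of -0.21 to -0.17, with the value without parental replicate 3 at -0.17 and adjusted p = 0.15), with no filter (adjusted p = 0.199) and with the replicate number as a block (-0.19, adjusted p = 0.0645). Krt18 was also 0.16 higher on the log2 scale in control than in parental libraries (SE 0.06, adjusted p = 0.0849), which DESeq2 called (adjusted p = 0.012).

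The balance within the pair differed as well. The ratio of Krt8 to Krt18, with counts divided by the length of the principal transcript of each, was 0.553, 0.59 and 0.57 in the knockout libraries. In the control libraries it was 1, 0.785 and 1.01, and in the parental libraries 0.868, 0.918 and 1.09. The knockout libraries were the 3 lowest, while the other groups overlapped. Mean ratios were 0.571 ± 0.0187, 0.932 ± 0.127 and 0.958 ± 0.115 (SD, n = 3 each). On the log2 scale the knockout mean was lower by 0.70 than the control and by 0.74 than the parental mean, each with p = 0.1 in an exact two-sided permutation test, which is the smallest value that 3 against 3 libraries can give. The difference between control and parental was -0.04 (exact permutation p = 0.8). The absolute ratio depends on the lengths used, and the differences between groups do not.

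**Figure D2:**
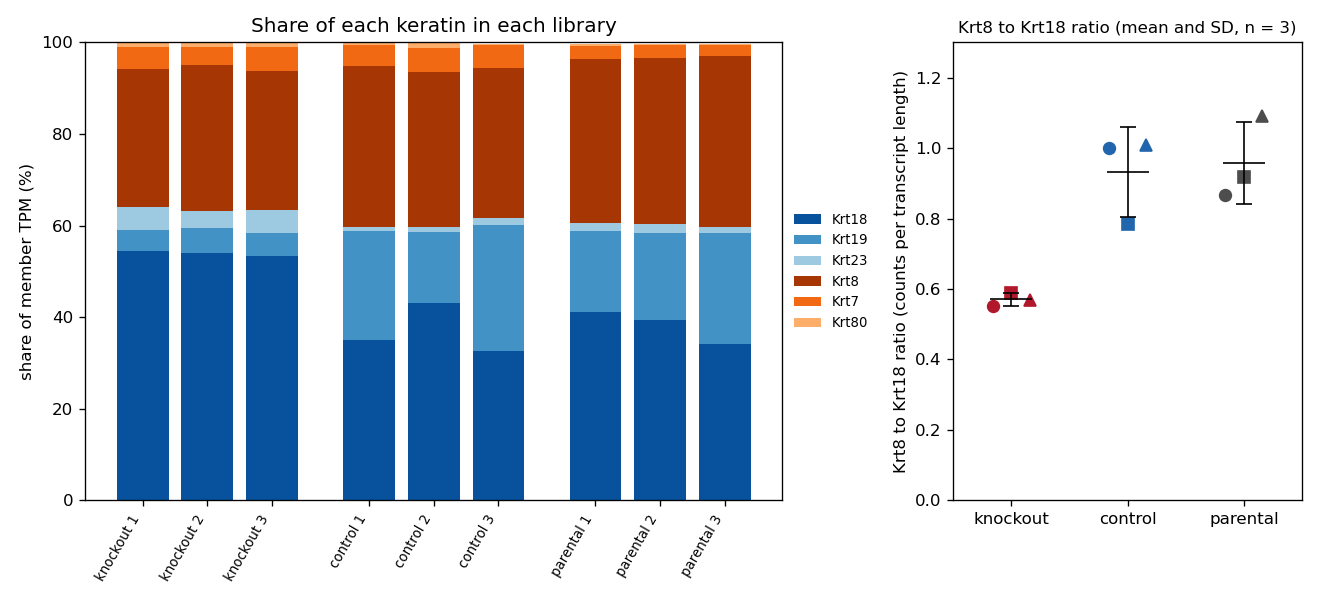
Left, the share in percent of the summed keratin TPM (counts per transcript length, scaled to the same sum in each library) that each keratin holds, by library; blue colours are type I and orange colours type II, and Krt14 and Krt20 are too low to be seen. Right, the ratio of Krt8 to Krt18 per library (marker shape gives the replicate number, bar and whiskers the mean and SD of 3), between 0.553 and 0.59 in the knockout and between 0.785 and 1.09 in the other libraries.

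Keratin 19, an unusually short type I keratin that marks ducts of the pancreas, showed the widest change among the abundant members. Krt19 reached 155, 185 and 176 CPM in the 3 knockout libraries, with 1656, 823 and 1991 in the control libraries and 912, 988 and 1519 in the parental libraries. The knockout libraries were far below all others, and control replicate 2 was the lowest of the 6 other libraries. The fall was 8.68-fold against the control clone (log2 fold change -3.12, SE 0.32, adjusted p = 8.76e-05) and 6.64-fold against the parental line (log2 -2.73, SE 0.31, adjusted p = 0.000278). Only 2.75% and 3.31% of all genes fell at least as far. The control clone and the parental cells overlapped, with a difference of 0.39 (SE 0.29, adjusted p = 0.382). Without control replicate 2 that difference was 0.68 and was called (adjusted p = 0.0254), and without control replicate 3 it was 0.12 (adjusted p = 0.772).

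Keratin 7, a type II keratin of ducts and other simple epithelia, set the control clone apart and not the knockout clone. Krt7 stood at 433, 355 and 475 CPM in the knockout libraries, 837, 746 and 940 in the control libraries and 387, 387 and 410 in the parental libraries. The control libraries were above all 6 others, and the knockout libraries lay on both sides of the parental ones. Krt7 was 2-fold lower in the knockout than the control clone (log2 fold change -1.0, SE 0.12, adjusted p = 0.000198) and 2.13-fold higher in the control clone against the parental line (1.09, SE 0.12, adjusted p = 0.000446). Being higher in the control clone than in both other groups held for 7.01% of all genes tested. The difference between the knockout clone and the parental cells was 0.09 (SE 0.12, adjusted p = 0.578). The call against the control clone thus had no counterpart against the parental cells.

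Keratin 23, a type I keratin, was the only tested member called higher in the knockout clone. It stood at 165, 131 and 170 CPM in the knockout libraries, 62.8, 52.5 and 97 in the control libraries and 94.5, 100 and 91.5 in the parental libraries. The knockout libraries were above all others, the lowest of them at 131 and the highest other library at 100. Krt23 was 2.19-fold higher than in the control clone (log2 fold change 1.13, SE 0.20, adjusted p = 0.00176), a rise that 3.61% of all genes reached. It was 1.63-fold higher than in the parental cells (0.70, SE 0.20, adjusted p = 0.0248). This second call was lost without knockout replicate 1 (0.66, adjusted p = 0.085), knockout replicate 3 (0.63, adjusted p = 0.0843) or any parental library (0.67 to 0.74, adjusted p = 0.0653 to 0.0894). Krt23 in the control clone differed from the parental cells by -0.43 (SE 0.20, adjusted p = 0.157), by -0.26 (adjusted p = 0.278) without control replicate 2 and by -0.72 (adjusted p = 0.0036) without control replicate 3.

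Keratin 20, a type I keratin of the gastrointestinal epithelium and the urothelium, was near the limit of measurement, with 32 counts in the knockout, 142 in the control and 141 in the parental libraries together. It stood at 0.634, 0.389 and 0.7 CPM in the knockout libraries, 3.4, 1.66 and 1.89 in the control libraries and 1.78, 2.53 and 3.59 in the parental libraries. The knockout libraries were below all others at this low level. The fold was 4.03 against the control clone (log2 fold change -2.01, SE 0.41, adjusted p = 0.00371) and 4.52 against the parental cells (-2.18, SE 0.41, adjusted p = 0.00366). The gene passed the filter on low counts through the control and parental libraries, since only 2 of 3 knockout libraries reached its level of 0.565 CPM. Krt20 and Krt23 lie 39.8 kb apart on the same strand, and their fold changes in the knockout comparisons have opposite signs.

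Krt80, a type II keratin found in many epithelia, was not called in any comparison. It stood at 57, 62.1 and 58.2 CPM in the knockout libraries, 41.4, 96.6 and 39 in the control libraries and 42.5, 36.2 and 32.7 in the parental libraries. Control replicate 2 was the highest of all 9 and the other control libraries lay with the parental ones. The log2 difference of the knockout clone was 0.01 from the control clone (SE 0.30, adjusted p = 0.991) and 0.67 from the parental cells (SE 0.30, adjusted p = 0.122), although all knockout libraries were above all parental libraries. Without control replicate 2 the difference was 0.56 from the control clone (adjusted p = 0.00195) and 0.67 from the parental cells (adjusted p = 0.00048). The sign against the control clone turned without control replicate 1 (-0.20), control replicate 3 (-0.22) or knockout replicate 2 (-0.01). Against the parental cells Krt80 was also called with no filter (adjusted p = 0.0394) and in a fit of only those groups (adjusted p = 0.000149). The control clone stood 0.66 above the parental cells (SE 0.30, adjusted p = 0.152), with 0.11 (adjusted p = 0.476) without control replicate 2 and 0.89 (adjusted p = 0.0401) without control replicate 3.

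Of the members that belong to stratified epithelia (Krt5, Krt14 and Krt17), Krt14 alone entered the test. Krt14, the type I keratin of basal cells, stood at 0.878, 1.78 and 0.934 CPM in the knockout libraries, 11.3, 8.08 and 16.6 in the control libraries and 9.82, 9.36 and 14.6 in the parental libraries. The knockout libraries were far below the 6 others, on 66 counts against 711 and 611. The difference was 10-fold against the control clone (log2 fold change -3.33, SE 0.36, adjusted p = 0.000127) and 9.39-fold against the parental line (log2 -3.23, SE 0.36, adjusted p = 0.000241), while 2.52% and 2.72% of all genes fell at least as far. Its usual partner Krt5 had 1 count in all 9 libraries, in control replicate 3. Krt17, a type I keratin of basal cells and injured skin, was listed at 0 in all 9 libraries. A count of 0 allows up to 0.0177 CPM over all libraries (3 counts, counting error only). The transcripts of Krt17 and Krt14 are 91.0% identical over 756 bases, so reads from such stretches are divided by estimate. Basal and squamous markers of another list summed to 444 to 629 CPM in the knockout, 504 to 1074 in the control and 638 to 834 in the parental libraries. Much of that sum was Itga6, at 371, 353 and 366 CPM in the knockout, control and parental groups, while Itgb4 (25.5, 95.8 and 57.6), Sprr1a (144, 325 and 247), Serpinb5 (5.89, 13 and 26.1) and Ivl (3.32, 8.12 and 6.28) were lowest in the knockout clone, as Krt14 was. Trp63, Dsg3, Dsc3 and Col17a1, which define basal cells, were near 0 in every group (at most 0.241 CPM). The part of these markers in the Krt14 result was not tested.

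**Figure D3:**
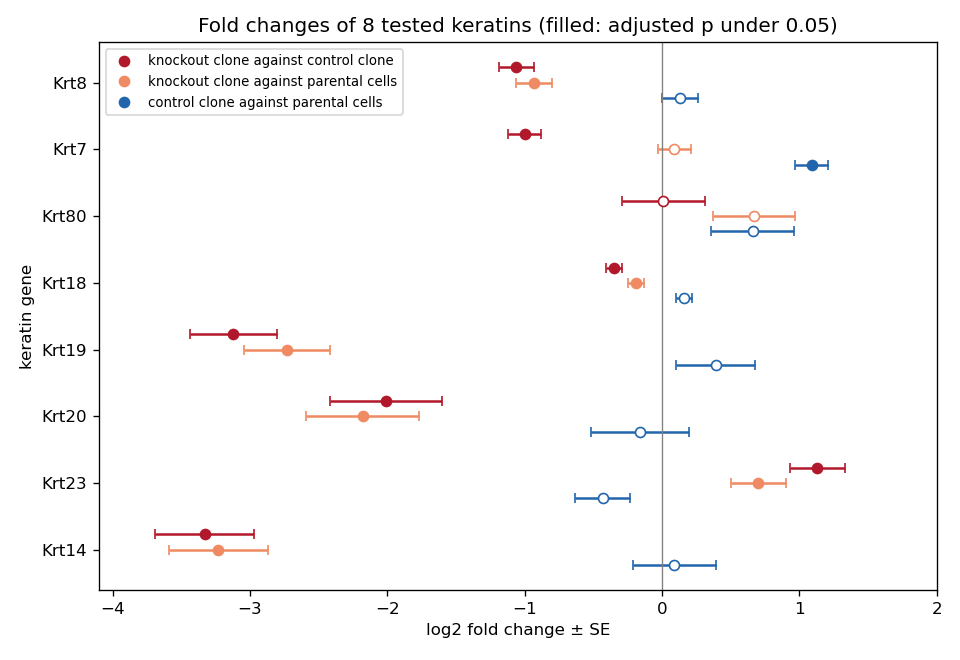
Log2 fold change ± SE of each tested keratin (y axis) in 3 comparisons, filled where the adjusted p was under 0.05. Krt19 and Krt14 lie near -3 in both knockout comparisons, Krt23 lies to the right of 0 in both, and Krt7 moves only where the control clone is compared.

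With counts divided by the length of the principal transcript, the tested members had the same order in the 3 groups, Krt18, Krt8, Krt19, Krt7, Krt23, Krt80, Krt14 and Krt20 from high to low. Levels in TPM (counts per transcript length, scaled to the same sum in each library, mean ± SD, n = 3) in the control clone were 3052 ± 88.2 for Krt18, 2849 ± 439 for Krt8 and 1915 ± 765 for Krt19. They were 417 ± 45.9 for Krt7, 91.7 ± 29.7 for Krt23, 39.1 ± 21.8 for Krt80, 14.3 ± 5.08 for Krt14 and 2.44 ± 0.992 for Krt20. In that order the SD ranges of Krt18 and Krt8, of Krt8 and Krt19 and of Krt80 and Krt14 overlapped. Krt19 reached 2550 TPM in control replicate 3, above the 2347 TPM of Krt8 in control replicate 2. In the parental cells Krt18 and Krt8 overlapped again, at 2956 ± 38 and 2831 ± 343. In the knockout clone Krt18 (2622 ± 44.1) stood clear of Krt8 (1498 ± 70), while the SD ranges of Krt19 (242 ± 21), Krt7 (228 ± 31.6) and Krt23 (220 ± 29.5) overlapped. Other lengths change the order, also of members further apart: coding length puts Krt8 above Krt18 in the control and parental groups and Krt7 above Krt19 in the knockout, and the length of all exons puts Krt23 above Krt19 in the knockout. In the parental cells that length also puts Krt23 above Krt7 and Krt14 above Krt80. By transcript length those parental levels were 134 ± 8.29 TPM for Krt23, 212 ± 4.17 for Krt7, 14.5 ± 3.51 for Krt14 and 26.6 ± 3.78 for Krt80. Krt7 is the least certain of these levels, as its principal transcript of 4094 bases holds only 1371 coding bases and short stretches of it match 108 other genes.

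All members together made up 4854 ± 75.7 TPM in the knockout clone, 8379 ± 1271 in the control clone and 7764 ± 781 in the parental cells. The make-up of this pool differed as well. Krt19 held 4.98 ± 0.362% of member TPM in the knockout clone, 22.2 ± 6.23% in the control clone and 20.2 ± 3.44% in the parental cells. Krt18 held 54 ± 0.557%, 37 ± 5.54% and 38.3 ± 3.65% in the same order, and Krt8 held 30.8 ± 0.964%, 34 ± 1.15% and 36.4 ± 0.721%. Krt23 held 4.54 ± 0.667% of the pool in the knockout clone, 1.09 ± 0.242% in the control clone and 1.75 ± 0.253% in the parental cells. These shares sum to a fixed total and are not independent of each other. By the length of the principal transcript, the ratio of type II to type I TPM was 0.561 to 0.582 in the knockout libraries. It was 0.618 to 0.673 in the control and 0.642 to 0.666 in the parental libraries, so the 3 knockout libraries were lowest by this length. A ratio of sums depends on the lengths used, also in its differences between groups. This order of the libraries need not hold with other lengths, such as coding length.

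The libraries of the control clone differed among themselves more than those of the other groups. The SD of log2 CPM, taken over the 10017 genes whose mean reached 5 CPM, had a median of 0.203 in the control, 0.0753 in the knockout and 0.0839 in the parental group. Krt80 and Krt19 were among the most variable genes of the control clone, with SDs of 0.73 and 0.67, above those of 97% and 96% of these genes. Their highest control library was 2.48 and 2.42 times the lowest. Krt20, Krt14 and Krt23 followed with SDs of 0.53, 0.52 and 0.45. Krt8 (0.24) and Krt7 (0.17) were near the median, and Krt18 (0.04) had a larger SD than only 4.53% of the genes. Control replicate 2 had the lowest Krt19, Krt14, Krt23, Krt20, Krt8, Krt7 and Krt18 of its group and the highest Krt80. From replicate 2 to replicate 3 the log2 difference was 1.27 for Krt19, 1.03 for Krt14, 0.88 for Krt23, 0.39 for Krt8, 0.33 for Krt7 and 0.03 for Krt18, and -1.31 for Krt80, while the median over the genes whose mean reached 5 CPM was -0.04. The knockout differences of Krt19 and Krt14 were larger than this spread: over the 17 alternatives Krt19 lay between -3.41 and -2.85 against the control clone, and Krt14 between -3.71 and -3.02.

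**Figure D4:**
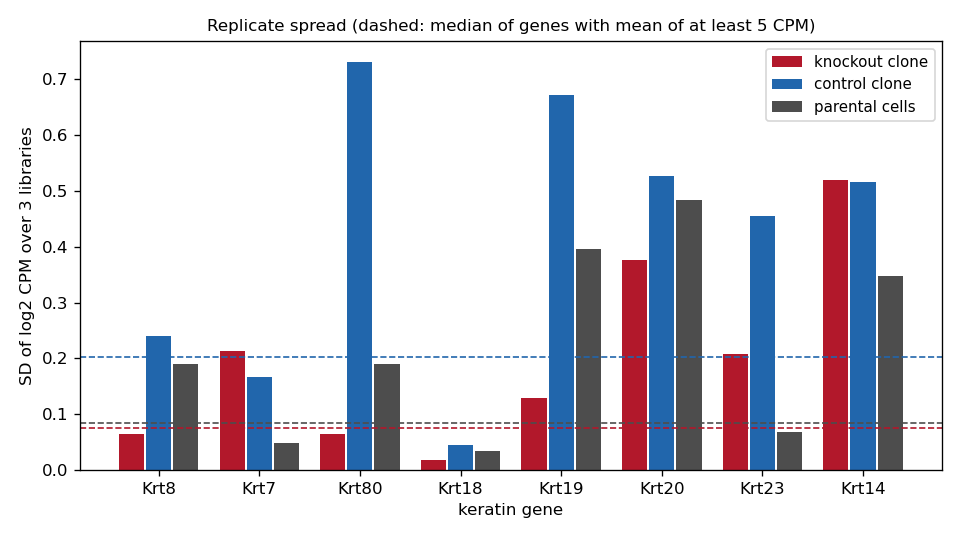
SD of log2 CPM over the 3 libraries of each group (y axis) for each tested keratin; dashed lines are the medians of the genes whose mean reached 5 CPM, in the group's colour. Krt80 and Krt19 have the tallest control bars, at 0.73 and 0.67, and Krt18 the lowest bars in all groups.

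The genes with the nearest profile over the 9 libraries, by root mean square difference of centred log2 CPM among 10016 genes, differed from member to member. For Krt8 they were Micu2 (0.05), Chmp2b (0.06) and Scamp2 (0.08), for Krt18 Mbd2, Mrps35 and Uba3 (0.05 each) and for Krt7 Rdm1 (0.11), Tnfrsf10b (0.14) and Acyp1 (0.14). For Krt19 they were Selenop (0.15), Pik3c2g (0.17) and Pllp (0.18), and for Krt14 Sh2d4a (0.19), Ptgs1 (0.25) and Alpi (0.25). Limd2 (0.13), Wipi1 (0.14) and Emp2 (0.14) were nearest to Krt23, and Lats2 (0.08), Fgd3 (0.11) and 2410002F23Rik (0.13) to Krt80. Among the members themselves Krt19 and Krt14 were the closest, at 0.31, with Krt19 the 7th nearest gene to Krt14 and Krt14 the 17th nearest to Krt19. The partners Krt8 and Krt18 were 0.36 apart, and Krt18 ranked 1480 among the genes nearest to Krt8. Profiles of genes measured in the same libraries share the depth and any fault of those libraries.

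Beyond the members, the count table holds 45 other keratin genes, of which 24 had no count in any library and 6 entered the test. All 6 were lower in the knockout than in the control clone (Krt10, Krt13, Krt36, Krt78, Krt79 and Krt8-ps), 5 of them (all but Krt10) were also lower than in the parental cells, beside 24.2% and 18.3% of all genes. In a fit of only the knockout and control groups 3 of the 6 were called, where 34.1% of all genes were. With a mean of at least 5 CPM required, only Krt79 and Krt8-ps are high enough to be tested. Both were called against either group, beside 45.9% (control) and 32.7% (parental) of all genes. Between control and parental the median of the 6 was 0.11. Krt13 and Krt36 passed the filter through the groups where they are high, so the count gives no support of its own. Krt79, a type II keratin of hair follicle and gland ducts, had means of 2.1 ± 0.155, 18 ± 15.9 and 12.3 ± 2.94 CPM in the knockout, control and parental groups (log2 fold changes -3.10, SE 0.61, adjusted p = 0.00316, and -2.55, SE 0.61, adjusted p = 0.0122). Krt8-ps, a pseudogene whose transcript is 98.6% identical to Krt8 over 941 bases, went from 6.08 ± 1.35 and 6.43 ± 0.762 to 2.79 ± 0.279 CPM, and reads of Krt8 may be among its counts. With its other similar gene it had as many counts as 0.354% of those of Krt8.

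Of 12 genes whose proteins tie keratin filaments to desmosomes and other structures, 8 were lower and 2 higher in the knockout clone against either other group. The shares over all genes were 24.2% lower and 18.7% higher against control, then 18.3% and 13.1% against parental. The lower ones were Dsp, Evpl, Jup, Pkp1, Pkp2, Pkp3, Pkp4 and Ppl, which belong to the desmosome and the cornified envelope, and the higher ones were Dst and Macf1, large linkers that also bind actin and microtubules. The calls of Dst and Macf1 against the parental cells were lost without knockout replicate 1 or 3 or parental replicate 2 or 3. There 7 genes of the list were called, all lower, where 18.7% to 20.8% of all genes were called in either direction. The list's median log2 fold change was -0.59 and -0.80, beside -0.02 and -0.01 over all genes. Dsp, which encodes desmoplakin, the desmosomal anchor of keratins, had means of 201 ± 23.2, 512 ± 160 and 605 ± 76.7 CPM in the knockout, control and parental groups (log2 fold changes -1.35, SE 0.22, adjusted p = 0.00104, and -1.59, SE 0.22, adjusted p = 0.000687). Ppl, for periplakin, had log2 fold changes of -1.20 and -1.55 (SE 0.11 each, adjusted p = 5.76e-05 and 3.1e-05), and Evpl, for its partner envoplakin, had -1.34 and -1.20 (SE 0.22 each, adjusted p = 0.00106 and 0.00295). Pkp1, among the 8, had only 6 counts in the knockout clone against 25 in the control and 134 in the parental group, and passed the filter on low counts through the parental libraries. Plec, for plectin, was at 566, 535 and 491 CPM and was not called. Between control and parental 2 of the 12 were lower, Pkp1 and Pkp3, beside 11% of all genes.

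Of 12 genes for proteins that bind, organise or cleave keratins, 3 were higher and 2 lower against the control clone and 2 were higher and 1 lower against the parental cells. These shares were at or below the 42.9% and 31.4% called over all genes. The second count ran from 1 to 7 over the alternatives, where the share over all genes ran from 15.9% to 53.5%. Hspb1, a small heat shock protein that associates with keratin filaments, was the gene higher in both comparisons, with means of 39.6 ± 3.65, 13.6 ± 7.48 and 18.1 ± 1.1 CPM in the knockout, control and parental groups (log2 fold changes 1.54, SE 0.30, adjusted p = 0.00279, and 1.12, SE 0.29, adjusted p = 0.0173). Among 8 tested intermediate filament genes that are not keratins, Vim and Lmna were lower in the knockout clone in both comparisons, beside 13.4% of all genes. Against the control clone alone Des was also lower, with 4 counts in the knockout and 297 in the control libraries, and Nes was higher (0.54, SE 0.16, adjusted p = 0.0245). In that comparison 3 of the 8 were thus lower and 1 higher, where 24.2% and 18.7% of all genes were. Des passed the filter on low counts only through the control libraries, where it is high. Its control level was 4.04 above the parental one on the log2 scale (SE 0.50, adjusted p = 0.000859). The knockout change of Des from parental was -1.95 (SE 0.87, adjusted p = 0.102). Vim, for vimentin, the filament of mesenchymal cells, had means of 1981 ± 101, 3553 ± 410 and 3008 ± 57.5 CPM (log2 fold changes -0.84, SE 0.09, adjusted p = 0.000106, and -0.60, SE 0.09, adjusted p = 0.000997). Vimentin RNA thus fell in the same comparisons as Krt8 and Krt18.

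Among 17 tested transcription factors linked to epithelial identity or keratin promoters, repressors included, 7 were lower and 3 higher against the control clone, where 24.2% and 18.7% of all genes were. The 3 were Sp1 and the repressors Snai2 and Zeb2. With a mean of at least 5 CPM required, Grhl1, Grhl3 and Ehf are too low to be tested, and 4 were lower. In that setting 45.9% of all genes were called in either direction. Without control replicate 1, 5 were higher, where 35% of all genes were called in either direction. Grhl3 and Ehf, among the 7, passed the filter through the groups where they are high. Klf4, whose product regulates epithelial differentiation, had means of 45.2 ± 8.56, 163 ± 31.5 and 161 ± 37.3 CPM in the knockout, control and parental groups (log2 fold changes -1.85, SE 0.21, adjusted p = 0.000141, and -1.84, SE 0.21, adjusted p = 0.000238). Elf3, an epithelial ETS factor, had log2 fold changes of -2.42 and -1.99 (SE 0.31 and 0.30, adjusted p = 0.000288 and 0.00124). Grhl3 had 0 counts in the knockout clone against 119 and 232, at least 37.5-fold and at least 78.5-fold lower against a floor of 3 counts over the group. Its control and parental means were 2.04 ± 2.51 and 4.32 ± 2.06 CPM. The control SD was above the mean, so the first of these bounds rests on libraries that differed widely. Ehf had 2 counts in the knockout clone against 35 and 36, which is 16.5-fold lower (95% counting interval 4.25 to 142) and 18.3-fold lower (4.71 to 157). Snai2 and Zeb2, repressors of epithelial genes, were higher in the knockout clone in both comparisons, while Zeb1, of the same family and more abundant (57.8, 61 and 57.2 CPM), was not called (-0.08 and 0.01, SE 0.08 each, adjusted p = 0.464 and 0.918). Whether any of these factors acts on the keratin genes was not measured.

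Within 250 kb of the members, 33 tested genes that are not members were counted, 15 on chromosome 11 and 18 on chromosome 15. In both knockout comparisons 10 of them were called lower, beside 13.4% of all genes, and 3 were called higher, beside 8.19%, while 15 were called in neither. The 10 include 4 keratins (Krt13, Krt36, Krt78 and Krt79), of which Krt13 and Krt36 passed the filter on low counts through the groups where they are high. Next to Krt8 and Krt18, Tns2 (log2 fold changes -2.33 and -2.32 against control and parental), Soat2 (-1.31 and -1.09) and Csad (-1.14 and -0.67) were called lower in both comparisons, and Eif4b (0.15 and 0.19) and Spryd3 (0.01 and -0.21), which lie among them, were not called. Gm36026, a lincRNA on the opposite strand that overlaps Krt8, had -0.95 and -1.03, and since the strand setting of the counting is not given, its reads and those of Krt8 cannot be told apart. Over all tested genes of chromosome 11 the median log2 fold change was -0.05 and 0.00 and 38.5% and 24.1% were called, and over those of chromosome 15 it was -0.02 and 0.09 with 44.2% and 39.6% called.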

How the data were processed

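RNA was measured by RNA-seq (KAPA mRNA HyperPrep, per the labels) in 9 libraries of PDA530 Met, which the design text writes as PDA50 Met. The authors deposited RSEM expected counts per gene, all of them whole numbers, so rounding changed none. Per the submitters' processing notes, RSEM 1.3.0, STAR 2.5.2, DESeq2 1.10.1 and GRCm38 were used; the annotation release and strand setting are not given in the sources used here. RSEM divides reads shared by similar genes by estimate. Symbols and positions came from GENCODE M21 (54809 of 54838 identifiers matched).

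All libraries entered 1 fit in edgeR 4.0.16 (R 4.3.3) with TMM scaling, filterByExpr (minimum count 10, total 15), group as the only term and glmQLFTest, over 13153 genes. Calls are genes under 0.05 after Benjamini-Hochberg adjustment. SE is the size of the unshrunken change over the root of F. CPM and TPM were computed from the deposited counts, TPM by the principal transcript's length. The steps were checked on simulated data. Intervals and floors cover counting error only, since reads are not independent molecules.

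The members and the gene lists were chosen with earlier results of these data known. All members were named, with other keratins and list genes that were called alike in both knockout comparisons (absolute log2 fold change of at least 1 for list genes, a mean of 5 CPM for keratins), and the 3 nearest profiles. Krt10, Krt13, Krt36, Krt78, list genes given by name only, Zeb1, Plec, Vim, Des, Nes and the neighbouring genes were named outside this rule, after their values were seen. A marker gene and the counts that rest on it are not reported here. Alternatives were DESeq2 1.42.0 (size factors or test), limma 3.58.1 voom, total counts, other filters, a fold threshold, the replicate block, a fit of the compared groups and each library left out.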

Additional observations from a re-analysis of the deposited data

How the results depend on the processing

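Of 405 fold changes of members recomputed under the alternatives, 376 kept their direction and side of the threshold, 13 lost the call, 8 gained one and 8 changed sign. The calls of Krt8, Krt19, Krt14 and Krt20 in both knockout comparisons, and of Krt7, Krt18 and Krt23 against the control clone, were kept in every alternative that tested them; the added fold threshold (absolute log2 of 1) is given apart. Members called numbered 7 against the control clone (7 to 8 with 1 library left out; 5 with the fold threshold, without Krt7 and Krt18), 6 for knockout against parental (4 to 7; 3 with the fold threshold) and 1 for control against parental (1 to 3; 2 with the DESeq2 test, which adds Krt18). Without control replicate 2 the last count was 2, adding Krt19, beside 29.2% of all genes. Without control replicate 3 it was 3, adding Krt23 and Krt80, beside 30.8%. The share of all genes called moved as well with 1 library left out. It ran from 32.1% to 53.5% for knockout against control and from 18.7% to 42.7% for knockout against parental. For control against parental it ran from 11% to 30.8%, and it was 25.5% with the DESeq2 test.

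Signs changed for values near 0. With 1 library left out, Krt80 against the control clone ran from -0.22 to 0.56 and Krt20 and Krt14 of the control against the parental cells from -0.56 to 0.11 and -0.21 to 0.31. Krt80 became -0.01 without knockout replicate 2, -0.20 without control replicate 1 and -0.22 without control replicate 3. For control against parental, Krt20 became 0.02 without control replicate 2 and 0.11 without parental replicate 3, and Krt14 became -0.21 without control replicate 3, -0.01 without parental replicate 1 and -0.04 without parental replicate 2. The cause was not tested.

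Without division by length the mean log2 ratio of Krt8 to Krt18 was -0.36 in the knockout, 0.34 in the control and 0.38 in the parental libraries, a shift by the lengths' constant. Libraries of the same number correlated at -0.223 to 0.344 in their deviations from the group means over 10017 genes. Libraries of different number correlated at -0.459 to 0.47. These values show no pairing by number, and they cannot tell how the libraries were handled. With the replicate block 7, 5 and 1 members were called, beside 42%, 30% and 18.9% of all genes. The block removed the Krt18 call against the parental cells. Of the other 6 keratins, 3 were called against the control clone in a fit of only those groups. With a mean of at least 5 CPM only Krt79 and Krt8-ps remained in the test, and both were called. Krt20, Krt5 and Krt17, and Krt14 in the knockout clone, rest on few or no counts.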
